A study of Homo sapiens with 24 samples.

Results

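The 32 genes described here make sterols and fatty acids or control how much is made, and they were followed in 4 triple-negative breast cancer cell lines with and without knockdown of ADAR1. They were chosen by symbol from the 37416 genes of the deposited tables, and all 32 were found and were expressed highly enough to be tested. Of these, 18 encode enzymes on the route from acetyl-CoA to cholesterol, 6 encode sterol sensing and transport proteins, and 8 belong to the fatty acid branch. The lines were BT549, HCC1806, MDAMB231 and MDAMB468, each infected with lentivirus that carried either a control hairpin with no target (shNT) or one against ADAR1 (shADAR1). Both arms therefore received virus, protamine sulfate at 10 µg/ml and puromycin at 2 µg/ml, with 24 h of infection and 72 h of selection, in medium with 10% serum, which supplies cells with cholesterol and fatty acids. Each of the 8 groups had 3 libraries labelled as biological replicates, 24 in all. The p-values measure the spread between these libraries, and in bulk RNA a lower level per cell cannot be told apart from fewer cells with the transcript. How many hairpins were used is not given in the sources used here.

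Cells take up cholesterol or build it through the mevalonate pathway, and they build fatty acids from the same precursor, acetyl-CoA. Both routes are under the transcription factors SREBP-1 and SREBP-2, encoded by SREBF1 and SREBF2, which are held in the endoplasmic reticulum with their escort SCAP when sterol is plentiful and are cut by proteases in the Golgi and sent to the nucleus when it is scarce. SREBP-2 acts mainly on sterol genes and SREBP-1 mainly on fatty acid genes, and both commonly act with NF-Y, a factor that binds CCAAT boxes. INSIG1 anchors SCAP in the endoplasmic reticulum and is itself a target of the SREBPs. Desaturases such as SCD and FADS2 set how unsaturated the membrane lipids are, which bears on ferroptosis, the cell death by lipid peroxidation named in the title of the series.

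Total counts ran from 10370645 to 97218217 per library, and 21352 genes were tested. ADAR, the targeted gene, was lower in shADAR1 by log2 fold changes of -1.94, -1.59, -2.19 and -1.43 in BT549, HCC1806, MDAMB231 and MDAMB468. The 5 epithelial markers summed to 3155 to 5568 CPM (counts scaled to a common library total) in HCC1806 and MDAMB468 libraries and 931 to 1159 CPM in MDAMB231. In BT549 they summed to at most 1.31 CPM, with EPCAM and KRT19 at 0 in its shNT libraries, while its 3 mesenchymal markers summed to at least 4001 CPM. The same 3 mesenchymal markers summed to 4587 to 6026 CPM in MDAMB231, at most 283 in HCC1806 and at most 113 in MDAMB468. Of the receptor genes ESR1, PGR and ERBB2, ERBB2 was the highest in every group, at means of 83.2 to 98.5 CPM. ESR1 had 480 to 1720 counts per library in HCC1806, 212 to 514 in MDAMB468, 3 to 36 in MDAMB231 and at most 2 in BT549. PGR had at most 38 counts in any library. Receptor protein was not measured in these libraries. Of 9 markers of other cell types, CD68 was the highest in 3 lines, at a mean of up to 91.7 CPM.

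A larger share of the promoter windows of the sterol enzymes held a CCAAT box than of promoter windows in general. A promoter window of 300 bases, from 250 before to 50 after the RefSeq start (GRCh38.p14), was given for 28 of the 32 genes. ACAT2, FDFT1, SQLE and FASN were not matched. Where a gene had more than 1 window, only the first listed was searched. CCAAT, searched on both strands and so also as ATTGG, lay in 12 of 15 sterol enzyme windows (80%), 3 of 6 sensing and transport windows and 3 of 7 fatty acid windows, against 35.7% of 27305 windows of that length. The windows of MVK and NSDHL held 5 each, and those of PMVK, IDI1 and CYP51A1 held none. IDI1 had 3 windows, and the one searched (chr10:1056655-1056954) lies outside the gene as the files list it (1039908 to 1049170, minus strand). The sterol regulatory element, searched as TCACNCCAC on both strands, lay in 1 of the 28, that of SREBF2, and in 1.15% of all windows. Only exact matches to this form were counted, so an element that departs from it would be missed. GGGCGG, the core of the Sp1 box, lay in 25 of the 28 (89.3%) and in 44.6% of all windows. The E-box CACGTG lay in 4 (14.3%) and in 7.43%. Matches to different motifs may overlap and were counted under each, and a match is a description of the letters, not a site of binding.

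Windows of 5 genes follow, 5′ to 3′ on the gene's strand, with matches to the CCAAT box and the sterol regulatory element, on either strand, in capitals. HMGCS1 and MSMO1 are among the sterol enzymes that varied together between libraries, SREBF2 holds the sterol regulatory element, ACLY is the gene that passed the test for knockdown, and FADS2 differed most between lines. They lie at chr5:43313363-43313662 (minus strand), chr4:165327419-165327718 (plus), chr22:41832855-41833154 (plus), chr17:41918973-41919272 (minus) and chr11:61815953-61816252 (plus).
HMGCS1: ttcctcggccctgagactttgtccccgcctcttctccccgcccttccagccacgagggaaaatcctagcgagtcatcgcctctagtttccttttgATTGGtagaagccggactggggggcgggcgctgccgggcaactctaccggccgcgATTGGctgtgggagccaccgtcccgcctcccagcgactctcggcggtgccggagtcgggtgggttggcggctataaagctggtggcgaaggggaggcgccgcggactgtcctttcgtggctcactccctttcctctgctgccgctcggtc
MSMO1: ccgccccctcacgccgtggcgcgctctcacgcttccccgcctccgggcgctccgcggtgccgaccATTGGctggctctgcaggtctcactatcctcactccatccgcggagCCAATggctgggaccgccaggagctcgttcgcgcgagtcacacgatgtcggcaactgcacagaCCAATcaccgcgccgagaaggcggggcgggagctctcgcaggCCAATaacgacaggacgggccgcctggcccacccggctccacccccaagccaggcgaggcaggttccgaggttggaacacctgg
SREBF2: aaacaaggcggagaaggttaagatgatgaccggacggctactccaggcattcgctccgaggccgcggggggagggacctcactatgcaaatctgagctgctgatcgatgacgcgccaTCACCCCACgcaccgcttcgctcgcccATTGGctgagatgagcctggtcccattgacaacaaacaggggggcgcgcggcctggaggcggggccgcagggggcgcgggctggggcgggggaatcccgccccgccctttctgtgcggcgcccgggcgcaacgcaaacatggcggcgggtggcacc
ACLY: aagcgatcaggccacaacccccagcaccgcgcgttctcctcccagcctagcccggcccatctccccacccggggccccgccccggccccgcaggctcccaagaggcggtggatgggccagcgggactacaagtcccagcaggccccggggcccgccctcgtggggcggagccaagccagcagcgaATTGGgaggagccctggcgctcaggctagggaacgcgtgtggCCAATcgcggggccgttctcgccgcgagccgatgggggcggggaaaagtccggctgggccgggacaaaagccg
FADS2: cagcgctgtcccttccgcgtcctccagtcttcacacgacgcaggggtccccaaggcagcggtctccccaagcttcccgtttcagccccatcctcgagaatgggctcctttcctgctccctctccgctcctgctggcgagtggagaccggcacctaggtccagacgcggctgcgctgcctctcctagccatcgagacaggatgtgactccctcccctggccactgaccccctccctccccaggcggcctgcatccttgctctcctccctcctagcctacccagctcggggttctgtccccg
The HMGCS1 window has 2 CCAAT boxes, that of MSMO1 has 4, and that of ACLY has 2. In the SREBF2 window the element reads TCACCCCAC and starts 133 bases before the start site, with a CCAAT box 106 bases before it. The FADS2 window shown holds neither motif. HMGCS1, ACLY and FADS2 each had 2 windows, and the one not shown was not searched.

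Without knockdown, the widest differences between lines were in FADS2, FADS1 and ELOVL6 of the fatty acid branch. In shNT cells 30 of the 32 genes differed between lines at an adjusted p under 0.05 (edgeR's quasi-likelihood joint test, Benjamini-Hochberg over all genes), where 85.9% of all genes did. That share was close to the background, so the size and order of the differences are given instead. The range of the 4 line means on the log2(CPM + 0.5) scale had a median of 2.02 over the fatty acid branch, 1.52 over the sterol enzymes and 1.18 over the sensing and transport genes. Over all 12997 genes with at least 5 CPM in their highest line it was 1.38.

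FADS2, the desaturase that opens the synthesis of long polyunsaturated fatty acids, spanned the widest range. Its levels were 1188, 1065 and 1002 CPM in BT549, 339, 450.0 and 314 in MDAMB231, 27.9, 25.9 and 24.5 in HCC1806 and 5.83, 5.53 and 6.38 in MDAMB468. No line overlapped another, each step in that order passed the test, and BT549 stood 183-fold above MDAMB468 (adjusted p 3.48e-19, edgeR's quasi-likelihood test, Benjamini-Hochberg over all genes). The range lay at the 98th percentile of all genes. FADS1, its neighbour on chromosome 11 and the next desaturase of that pathway, followed the same order with 464, 453 and 478 CPM in BT549, 245, 276 and 252 in MDAMB231, 87.3, 69.1 and 92.9 in HCC1806 and 7.92, 9.58 and 9.002 in MDAMB468. That made 52.5-fold between the ends, again with no overlap and with all 3 steps past the test. The listed exons of FADS1 (61799625 to 61829318, minus strand) and FADS2 (61792980 to 61867354, plus strand) share 490 bases, and counting is not stated to use strand, so a few reads of one may stand under the other.

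ELOVL6, which lengthens palmitate, had another order. It stood at 88.8, 115 and 99.7 CPM in MDAMB231, 49.4, 51.7 and 45.4 in BT549, 29.9, 22.1 and 33.9 in HCC1806 and 6.14, 6.36 and 5.85 in MDAMB468, a 16.5-fold range in which all neighbours differed. MDAMB468 was thus lowest for all 3 of these genes. SCD, which makes monounsaturated fatty acids, was again highest in BT549, at 2878, 2765 and 3438 CPM, against 912, 1334 and 843 in MDAMB231, 781, 702 and 684 in HCC1806 and 443, 576 and 599.8 in MDAMB468. HCC1806 and MDAMB468 did not differ past the threshold (adjusted p 0.06097 by the same edgeR test, Benjamini-Hochberg).

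FASN, the fatty acid synthase itself, was nearly level. It stood at 1552, 1327 and 1216 CPM in BT549, 1317, 1304 and 1397 in HCC1806, 1116, 1456 and 1006 in MDAMB231 and 1279.8, 1271 and 1158 in MDAMB468, and of the 6 pairs of lines only HCC1806 and MDAMB468 had no overlap. Its adjusted p in the joint edgeR test (Benjamini-Hochberg) was 0.397, and its range, 0.205 on the log2 scale, lay at the 0.6th percentile of all genes. Per kilobase of listed exon length, SCD had the highest mean of the 32 genes over the 4 lines, at 101 to 564 CPM per kb, followed by FASN at 133 to 152, which lay above SCD in HCC1806 and MDAMB468, and ACLY at 61.1 to 99.2. Summed over the 8 genes, the fatty acid branch made up 6679 ± 274 CPM in BT549, 3759 ± 671 in MDAMB231, 2753 ± 82.4 in HCC1806 and 2351 ± 53.9 in MDAMB468 (SD, n = 3). Ranked by mean, BT549 was the highest line for 5 of the 8 genes and MDAMB468 the lowest for 5. For FASN and ACACA BT549 did not differ from the next line past the threshold, and for SCD MDAMB468 did not.

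**Figure D1:**
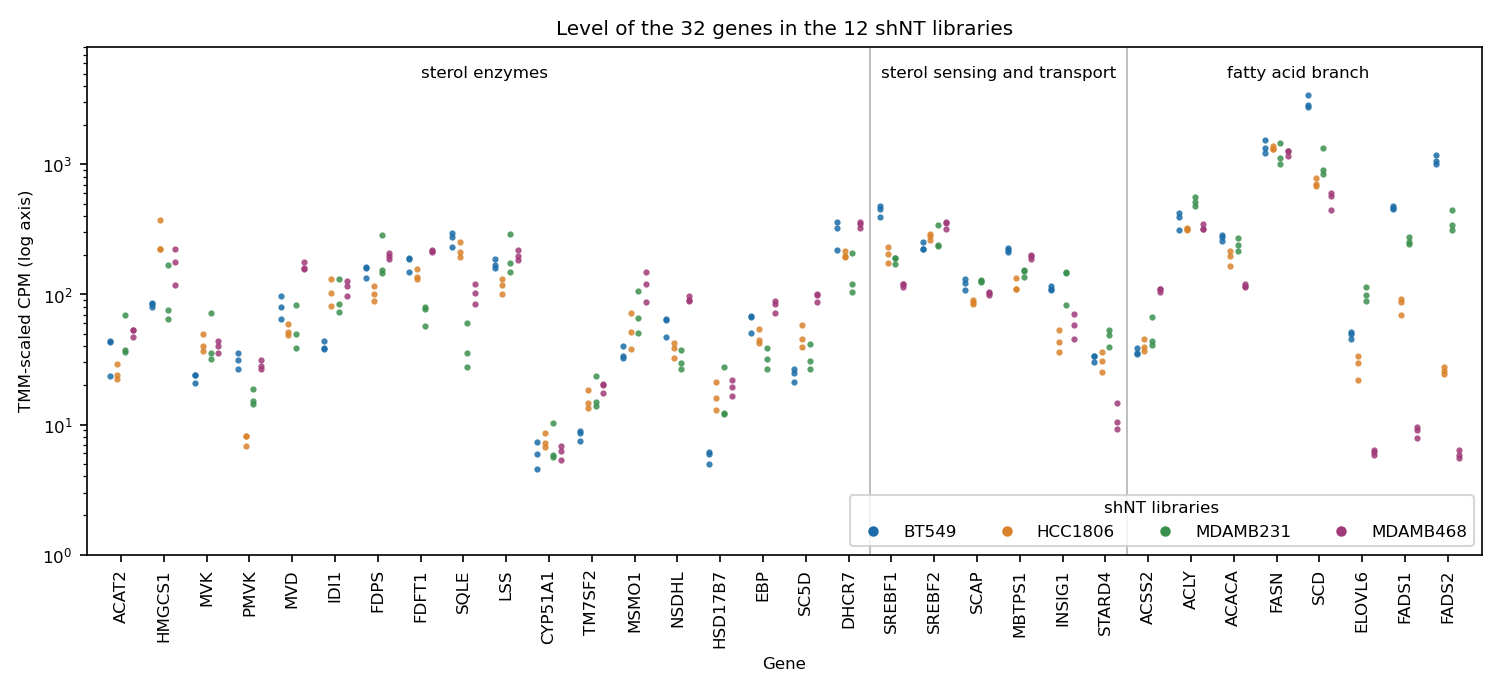
Level of each of the 32 genes in the 12 shNT libraries, in TMM-scaled CPM on a log axis; each point is 1 library and the colour gives the line. FADS2, FADS1 and ELOVL6 spread over more than a factor of 10 between lines, while the FASN points of all lines lie together.

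The sterol enzymes were ordered differently, with MDAMB468 at the top. Ranked by mean, it was the highest line for 12 of the 18 enzymes and the lowest for none, whereas BT549 was lowest for 8. MDAMB468 differed from the next line past the threshold for MVD, FDFT1, MSMO1, NSDHL, EBP and SC5D. It did not for ACAT2, IDI1, FDPS, TM7SF2, HSD17B7 and DHCR7. BT549 did not differ from the line above it for HMGCS1, CYP51A1 and MSMO1. Their sum was 2068 ± 148 CPM in MDAMB468, 1565 ± 213 in BT549, 1519 ± 232 in HCC1806 and 1237 ± 453 in MDAMB231 (SD, n = 3). Of 54 steps between neighbouring lines in these orders 25 passed the test, against 15 of 24 in the fatty acid branch. Of all genes 63.5% differed between BT549 and HCC1806, 56.5% between BT549 and MDAMB231, 61% between BT549 and MDAMB468, 59% between HCC1806 and MDAMB231, 62.9% between HCC1806 and MDAMB468 and 61.8% between MDAMB231 and MDAMB468. These shares are for fixed pairs of lines. The steps join lines that neighbour in each gene's own order, so the shares are not a like measure for them.

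The 3 sterol enzymes with the widest ranges are given by library. SQLE, which makes squalene epoxide, stood at 276, 297 and 233 CPM in BT549, 211, 253 and 193 in HCC1806, 85.1, 102 and 120.2 in MDAMB468 and 35.3, 60.3 and 27.9 in MDAMB231. BT549 and HCC1806 overlapped and did not differ past the threshold (adjusted p 0.264 in the edgeR test, Benjamini-Hochberg), and MDAMB231 lay 6.49-fold below BT549. SC5D, a desaturase late in the pathway, was highest in MDAMB468 at 88.1, 101 and 99.7 CPM and lowest in BT549 at 21.1, 26.9 and 24.9, with HCC1806 at 45.6, 57.98 and 39.8 and MDAMB231 at 31.01, 41.5 and 26.96. PMVK, phosphomevalonate kinase, was lowest in HCC1806 at 8.09, 8.18 and 6.84 CPM, while MDAMB231 had 14.3, 18.8 and 15.2, MDAMB468 31.1, 28.2 and 26.8 and BT549 35.6, 31.5 and 26.5.

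CYP51A1, the lanosterol demethylase, was the sterol enzyme that did not pass the joint test between lines (adjusted p 0.393, edgeR, Benjamini-Hochberg), and also the lowest of the 32 genes per kilobase, at 1.47 to 1.84 CPM per kb. Of its listed exon bases 78.8% are shared with LRRD1, and 52.3% of those of ACAT2, the thiolase of the first step, are shared with TCP1 and another gene, so both counts may be too low. HSD17B7, a reductase of the pathway, has a near-identical pseudogene among which reads may be split, and its values are uncertain for that reason.

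The 2 SREBP genes had different orders. SREBF1 was highest in BT549, at 453, 394 and 482 CPM, and lowest in MDAMB468, at 120.1, 121 and 114, with HCC1806 at 203, 174 and 234 and MDAMB231 at 189, 170.3 and 190.0. Its BT549 and MDAMB468 libraries stood clear of all others, 3.74-fold apart. SREBF2 ran the other way, with 320.3, 354 and 362 CPM in MDAMB468 and 253, 225 and 223 in BT549, a difference of only 1.48-fold (adjusted p 0.000199, edgeR, Benjamini-Hochberg). HCC1806, at 262, 291 and 282, and MDAMB231, at 239, 340.1 and 235, lay between, and below MDAMB468 no neighbouring lines differed past the threshold. Ranked by mean, BT549 thus had the highest levels of SREBF1 and of 5 of the 8 fatty acid genes. MDAMB468 had the highest levels of SREBF2 and of 12 of the 18 sterol enzymes. For FASN, ACACA and several of those enzymes the highest line did not differ from the next past the threshold. The ranks are given as an order over 4 lines with no test of a link between them.

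In the fit that left the replicate numbers unpaired, knockdown of ADAR1 moved few of these genes beyond the spread between libraries. A fit that paired them called more, as given below. By edgeR's quasi-likelihood F test, adjusted by Benjamini-Hochberg, none of the 32 genes passed an adjusted p of 0.05 within a line, where the share of all genes that passed was 0.473% for BT549, 0.0468% for HCC1806, 2.01% for MDAMB231 and 0.0375% for MDAMB468. Without adjustment, 1, 2, 3 and 1 of the 32 had a p under 0.05 in the same order, against 6.42%, 4.35%, 11.7% and 3.76% of all genes. DESeq2 called 0, 0, 1 and 0, against 1.4%, 0.197%, 3.8% and 0.197% of all genes. In the average of the 4 line effects 1 gene passed, ACLY, lower in shADAR1, against 2.96% of all genes called and 1.7% called lower. In that edgeR average 4 of the 32 had an unadjusted p under 0.05, against 12.8% of all genes. DESeq2 called 2 in the average, against 4.94% of all genes. None of the 32 passed edgeR's joint test that the effect differs between lines, where 0.0234% of all genes did. Without adjustment 0 of the 32 had a p under 0.05 in that test, against 4.44% of all genes. DESeq2 called 0 for this difference, against 0.585% of all genes.

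Same-numbered libraries of the arms of a line varied together, and a fit blocked on replicate number, which removes that shared variation, called more genes throughout. It called 9 of the 32 in MDAMB231, 5 in HCC1806, 3 in BT549, 1 in MDAMB468 and 7 in the average. All genes were called more often too, at 11.4%, 2.1%, 5.14%, 1.66% and 13.2% in that order. These blocked values are given below beside each gene whose call they change.

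**Figure D2:**
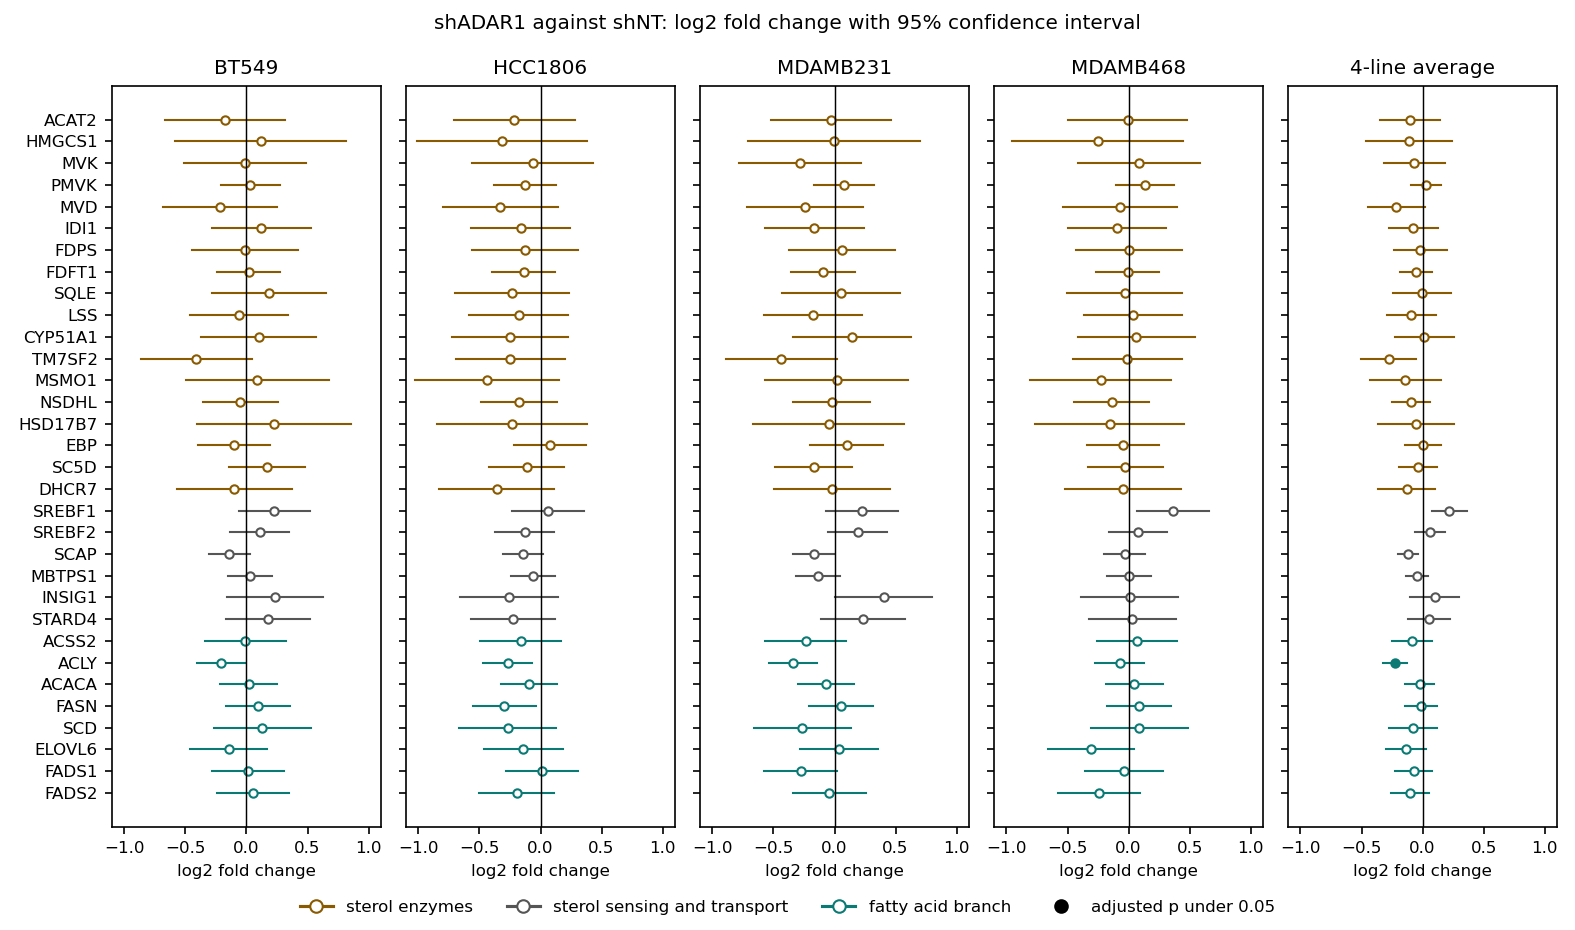
Log2 fold change of each gene, shADAR1 over shNT, in each line and in the average of the 4 lines, with 95% confidence intervals from the fit without a block; filled points have an adjusted p under 0.05. ACLY in the average is the single filled point, and in HCC1806 29 of the 32 points lie to the left of 0.

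ACLY, ATP citrate lyase, makes the cytosolic acetyl-CoA from which both branches start. In BT549 it stood at 422, 393 and 316 CPM in shNT and 341, 334 and 302 in shADAR1. HCC1806 had 321, 323 and 312 against 258, 277 and 259, and MDAMB231 had 516, 558 and 478 against 373, 461 and 391. MDAMB468 had 350.0, 321 and 318 against 312, 316 and 311. The shADAR1 libraries lay below all shNT libraries in HCC1806, MDAMB231 and MDAMB468, the arms overlapped in BT549, and shADAR1 was lower in 12 of 12 same-numbered pairs.

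In the average ACLY fell by 0.22 on the log2 scale (SE 0.04796, adjusted p 0.00777, edgeR's quasi-likelihood F test, Benjamini-Hochberg). The BT549 log2 fold change was -0.21, that of HCC1806 -0.27, that of MDAMB231 -0.34 and that of MDAMB468 -0.073, with adjusted p-values of 0.732, 0.877, 0.0725 and 1 in that edgeR test. With the replicate number as a block the adjusted p in edgeR was 6.60e-06 in the average, 0.000201 in MDAMB231, 0.0108 in HCC1806 and 0.0357 in BT549. The largest fall, in MDAMB231, thus passed in the blocked fit and missed the threshold without it. The gene lies on chromosome 17 (41866908 to 41930542, minus strand, as the files list it).

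**Figure D3:**
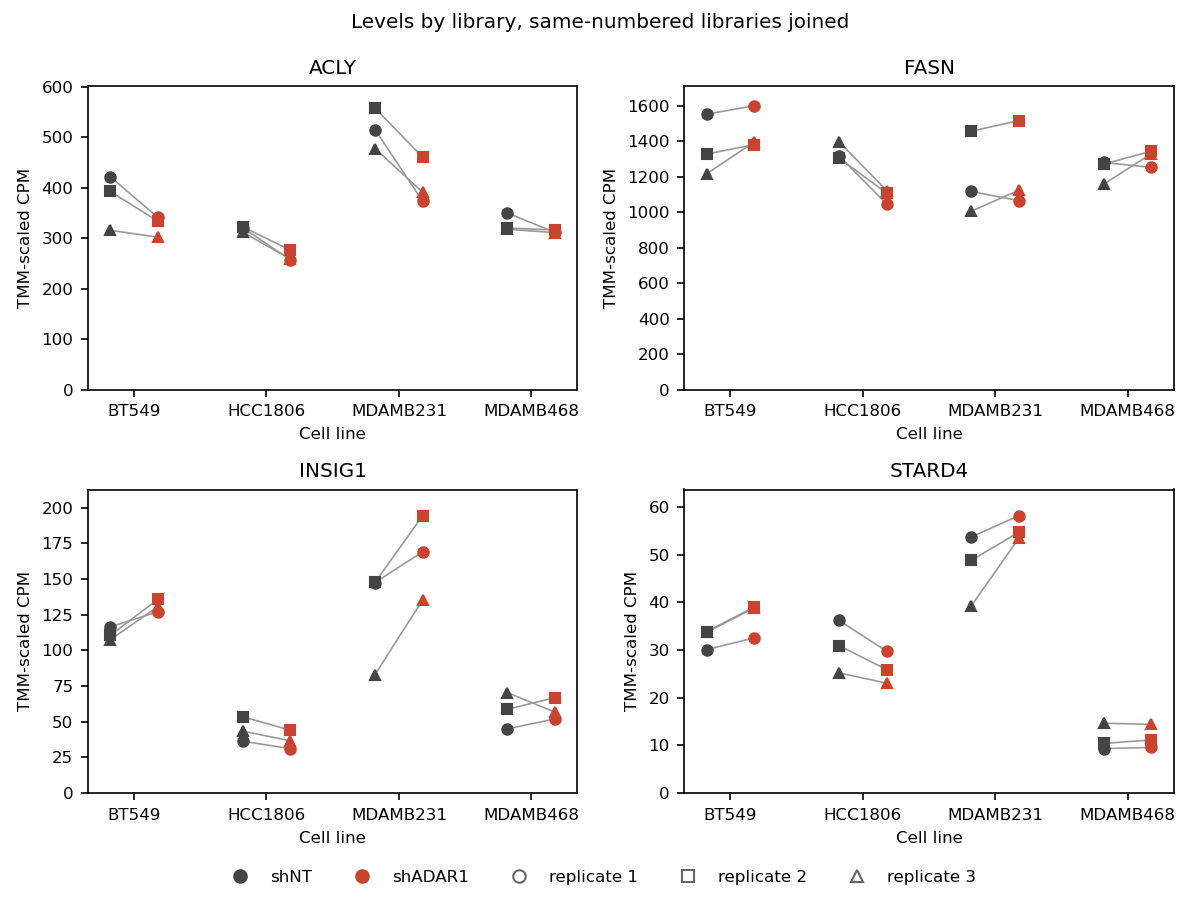
Levels of ACLY, FASN, INSIG1 and STARD4 in every library, in TMM-scaled CPM, with shNT in grey, shADAR1 in red, a marker for each replicate number and a line joining same-numbered libraries. For ACLY all 12 lines slope down; for INSIG1 and STARD4 they slope up in BT549 and MDAMB231 and down in HCC1806.

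Among the other fatty acid genes the effect on FASN differed between the lines once replicates were paired. In HCC1806 it stood at 1317, 1304 and 1397 CPM in shNT and 1046, 1108 and 1121 in shADAR1, with no overlap. In the remaining lines the arms overlapped: BT549 had 1599.7, 1381 and 1395 CPM in shADAR1, MDAMB231 1064, 1516 and 1124 and MDAMB468 1252, 1344 and 1329, against the shNT values given above. The log2 fold change was -0.29 in HCC1806 (adjusted p 1 without the block and 0.00383 with it, edgeR, Benjamini-Hochberg) and 0.050 to 0.096 in the others. The joint test that the effect differs between lines gave an adjusted p of 0.00572 in the blocked edgeR fit, where 4.69% of all genes passed, and 1 without the block.

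The remaining fatty acid genes passed in no fit, or only in the blocked one. In MDAMB231 the blocked fit called SCD at -0.28 and FADS1 at -0.28 on the log2 scale, and in the average it called ELOVL6 at -0.14. SCD stood there at 582, 1124 and 863 CPM in shADAR1, overlapping shNT, and FADS1 at 172, 239 and 227, below all shNT libraries. ACSS2, which makes acetyl-CoA from acetate, ACACA, which makes malonyl-CoA, and FADS2 were called in none. In the average all 8 genes of the branch had a negative log2 fold change, with a median of -0.082 against 0.018 over all genes. The branch median was -0.18 in HCC1806 and -0.15 in MDAMB231, against 0.016 in BT549 and 0.0045 in MDAMB468. That of MDAMB231 was -0.26 without shADAR1 replicate 2, -0.013 without shADAR1 replicate 1 and 0.017 without shNT replicate 2, while that of HCC1806 stayed between -0.23 and -0.16 without any 1 library. The average median of the branch was -0.038 without MDAMB231 shADAR1 replicate 1 and -0.040 without its shNT replicate 2.

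Most sterol enzymes had negative fold changes in HCC1806, though none passed the test there without the block, and their medians were near 0 elsewhere. In HCC1806 17 of the 18 had a negative log2 fold change, with a median of -0.20, where 47.8% of all genes were negative with a median of 0.0041. Negative values were found for 9 of 18 in BT549 (median 0.0041), 12 in MDAMB231 (median -0.025) and 13 in MDAMB468 (median -0.031). In the average 15 of 18 were negative (14 to 16 over the other scalings, filters and fits), with a median of -0.072. Of the MDAMB231 libraries, leaving out shADAR1 replicate 2 gave -0.15 and leaving out shNT replicate 2 gave 0.0062. Per same-numbered pair, the HCC1806 median was -0.24, -0.23 and -0.10 for replicates 1, 2 and 3, and that of MDAMB231 was -0.13, -0.048 and 0.049. The unblocked MDAMB231 median moved to -0.36 without shADAR1 replicate 2 and to 0.23 without shNT replicate 2, the libraries described at the end, in which the enzymes were high. The HCC1806 median was -0.085 without shNT replicate 2 and -0.29 without shNT replicate 3. The 18 genes were measured in the same libraries and are not replicates of one another.

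The enzymes that passed did so only in the blocked fit, and all were lower. In HCC1806 these were MSMO1, a methylsterol oxidase, DHCR7, the reductase that ends cholesterol synthesis, and MVD, which makes isopentenyl diphosphate, 3 of 18, where 0.632% of all genes were called lower. MSMO1 had 51.8, 71.8 and 38.4 CPM in shNT and 40.02, 52.3 and 27.5 in shADAR1. DHCR7 had 199, 218 and 196 against 150.2, 176 and 152, and MVD had 51.4, 59.8 and 48.9 against 37.9, 49.9 and 39.9. Only DHCR7 was free of overlap, and all 3 genes were lower in 3 of 3 pairs. The blocked log2 fold changes were -0.44 (adjusted p 0.0355), -0.36 (0.00654) and -0.33 (0.0341, edgeR, Benjamini-Hochberg). Without the block each adjusted p was 1.

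TM7SF2, a sterol reductase, was the enzyme with the largest negative average, -0.28 (adjusted p 0.239 without the block and 0.000941 with it, edgeR, Benjamini-Hochberg). It stood at 8.96, 8.57 and 7.42 CPM in BT549 shNT and 6.12, 5.49 and 7.1996 in shADAR1, and at 13.9, 23.5 and 14.9 against 8.43, 18.1 and 12.1 in MDAMB231. The BT549 arms did not overlap, those of MDAMB231 did, and shADAR1 was lower in 11 of 12 pairs over the 4 lines. The blocked fit called it in BT549 (-0.42) and MDAMB231 (-0.43). In MDAMB468 its log2 fold change was -0.011. LBR, which has the same reductase activity and was not among the 32, was higher in the blocked average by 0.19 (adjusted p 9.99e-06 in that edgeR fit). MVK was called in the blocked MDAMB231 fit at -0.27, and MVD and DHCR7 in the blocked average at -0.21 and -0.13. HMGCS1, which opens the mevalonate route after the thiolase, passed in none, with log2 fold changes from -0.32 in HCC1806 to 0.12 in BT549.

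The sensing and transport genes leaned upward in BT549 and MDAMB231 and downward in HCC1806. Their median log2 fold change was 0.21 in MDAMB231, 0.14 in BT549 and 0.020 in MDAMB468, against -0.14 in HCC1806. That of MDAMB231 was 0.11 without shNT replicate 3. INSIG1 had 116, 110.5 and 107 CPM in BT549 shNT and 127, 136 and 131 in shADAR1. HCC1806 had 36.3, 53.5 and 43.4 against 31.1, 44.1 and 36.6, MDAMB231 147, 148 and 83.03 against 169, 194 and 135, and MDAMB468 45.1, 58.7 and 70.4 against 51.9, 66.9 and 56.7. The arms were apart only in BT549, and the pairs were higher in 3 of 3 in BT549 and MDAMB231 and lower in 3 of 3 in HCC1806.

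Its blocked log2 fold change was 0.44 in MDAMB231, 0.24 in BT549 and 0.017 in MDAMB468, and -0.25 in HCC1806. The MDAMB231 value passed (adjusted p 0.00135, against 0.415 without the block, edgeR, Benjamini-Hochberg), as did the difference between lines (adjusted p 0.00837, against 1 without the block). STARD4, which carries sterol between membranes, had the same signs. Its level was 53.7, 48.8 and 39.3 CPM in MDAMB231 shNT and 58.2, 54.7 and 53.5 in shADAR1, and 36.2, 30.9 and 25.2 against 29.7, 25.9 and 23.04 in HCC1806, overlapping in both. The blocked values were 0.25 in MDAMB231 (adjusted p 0.0273) and -0.22 in HCC1806, and the difference between lines had an adjusted p of 0.0264 in that edgeR fit and 1 without the block.

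SREBF1 was the only one of the 32 genes with a positive log2 fold change in all 4 lines, and 7 were negative in all 4 (ACAT2, ACLY, DHCR7, MVD, NSDHL, SCAP and TM7SF2). Of all genes 12.3% were positive and 9.41% negative in all lines. SREBF1 had 140.3, 153 and 163 CPM in MDAMB468 shADAR1, above all 3 shNT libraries, and 504, 459 and 591 in BT549, 218, 184 and 241 in MDAMB231 and 195, 171 and 270.4 in HCC1806, each overlapping the shNT values given above. It was higher in 10 of 12 pairs, and both exceptions were in HCC1806. There its log2 fold change was 0.062, and it turned to -0.13 without shADAR1 replicate 3 and -0.040 without shNT replicate 2. Its average was 0.22 (adjusted p 0.111 without the block and 5.76e-05 with it, edgeR, Benjamini-Hochberg), and the blocked fit called it in BT549, MDAMB231 and MDAMB468 at 0.22, 0.22 and 0.36. SREBF2 was called only in the blocked MDAMB231 fit, at 0.204.

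SCAP, the escort of the SREBPs, went the other way, with an average of -0.12 (adjusted p 0.122 without the block and 0.00455 with it, edgeR, Benjamini-Hochberg). Its shADAR1 level was lower in 11 of 12 pairs. MDAMB231 had 129.8, 128 and 125 CPM in shNT and 109, 119 and 112 in shADAR1, without overlap. MBTPS1, the protease that makes the first cut in the SREBPs, passed in neither fit.

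Counted by overlap alone, 3 of the 32 genes had separate arms in BT549, MDAMB231 and MDAMB468 each and 4 in HCC1806, against 14.7%, 14.2%, 11% and 7.58% of all genes in that order. ACLY was among them in 3 lines, as were TM7SF2, HSD17B7 and INSIG1 in BT549, CYP51A1, DHCR7 and FASN in HCC1806, SCAP and FADS1 in MDAMB231, and NSDHL and SREBF1 in MDAMB468. Only HSD17B7, INSIG1 and SREBF1 were higher in shADAR1.

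In MDAMB231, HCC1806 and MDAMB468 the level of HMGCS1 varied more between the replicates of an arm than between the arms. HMGCS1 had 75.5, 168 and 64.4 CPM in the shNT libraries 1, 2 and 3 of MDAMB231 and 66.7, 168 and 72.9 in the shADAR1 libraries. In HCC1806 it had 224, 376 and 224 and 193, 305 and 164, and in MDAMB468 117, 177 and 224 and 119.8, 173 and 143. Replicate 2 was the high one in both arms of MDAMB231 and HCC1806.

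Replicate 2 was also the highest library for most of the 18 sterol enzymes in 7 of the 8 groups, MDAMB468 shNT being the exception. It was so for 18 of 18 sterol enzymes in MDAMB231 shNT and 17 in MDAMB231 shADAR1, for 15 and 14 in HCC1806, for 10 and 10 in BT549, and for 7 and 17 in MDAMB468, in the order shNT and shADAR1. Over all genes replicate 2 was highest for 40.3% and 38.5% in MDAMB231 and for 29% to 36.4% in the other groups. In MDAMB231 the median enzyme of replicate 2 lay 0.58 above its group mean in shNT and 0.53 in shADAR1 on the log2(CPM + 0.5) scale, and the sum of the 18 ran from 924 to 1756 CPM within the shNT arm alone. All 8 fatty acid genes were also highest there in replicate 2, in both arms. What set these libraries apart is not given in the labels and was not tested.

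**Figure D4:**
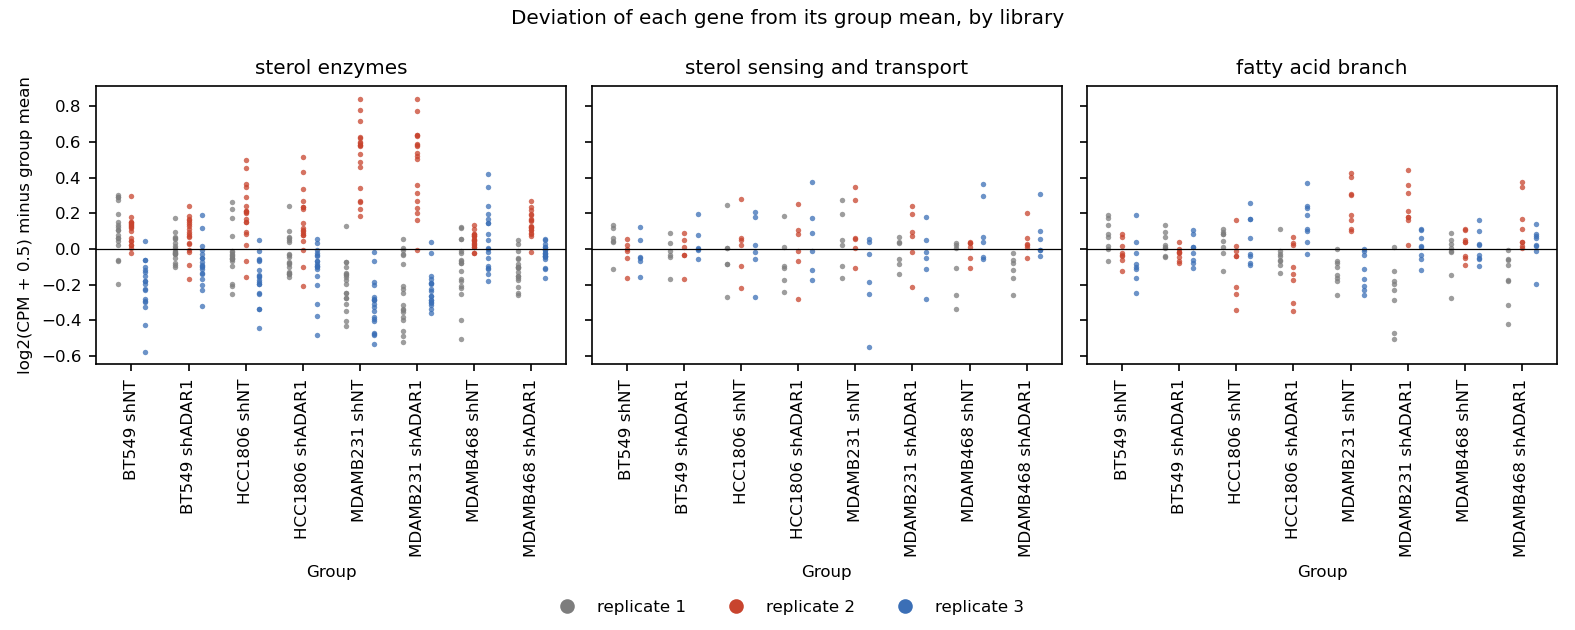
Deviation of each gene from the mean of its group on the log2(CPM + 0.5) scale, for the 3 libraries of each group, with 1 panel for each set of genes. Replicate 2 (red) lies above 0 for most sterol enzymes in both arms of MDAMB231 and HCC1806, while the sensing and transport genes lie on both sides of 0.

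Across the 24 libraries, after each group's mean was removed, the sterol enzymes moved together. The median Pearson correlation over their 153 pairs was 0.73, with a range of 0.24 to 0.97, against 0.54 over the 28 pairs of the fatty acid branch, -0.013 over the 15 pairs of sensing and transport genes and 0.027 over the 11794 genes that had 10 counts or more in each library. These are descriptions: the points share libraries, depth and replicate numbers. The MDAMB231 libraries weigh most in them. The median enzyme deviated by 0.58 and 0.53 in replicate 2 of its arms, and by at most 0.20 in any library of the other lines. The correlations were not computed without MDAMB231. SREBF2 followed HMGCS1 with a correlation of 0.80 and INSIG1 followed it with 0.75, while SREBF1 had -0.60. IDI1, CYP51A1 and PMVK, whose searched windows held no CCAAT box, had correlations of 0.94, 0.75 and 0.34 with HMGCS1. The IDI1 window searched lies outside the listed gene, so its promoter at the listed start was not searched. ELOVL6 (-0.082) and FADS1 (0.027) did not follow it.

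Of the other genes listed for these pathways, a larger share passed in the average than the 2.96% of all genes. The lists were chosen with earlier results of these data known, so that share is not read as a result about the pathways. Among 26 further sterol and SREBP pathway genes 2 were higher and 2 lower in the average, and the same numbers in MDAMB231, with none in BT549, HCC1806 and MDAMB468 (7, 2 and 2 there at an unadjusted p under 0.05 in the edgeR test). Among those that passed in the average were RDH11, a retinol dehydrogenase, at a log2 fold change of -0.29, PANK3, a pantothenate kinase that starts the synthesis of coenzyme A (0.22), and NFYC, a subunit of NF-Y (0.25). With the replicate number as a block 12 of the 26 passed in the average, 6 in each direction, against 13.2% of all genes.

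Of 23 further fatty acid synthesis genes 2 were lower and none higher in the average. MLX, the partner of the sugar-sensing factor ChREBP, fell in the average by 0.86 on the log2 scale (adjusted p 3.04e-10, edgeR, Benjamini-Hochberg) and passed in all 4 lines, at -1.097, -0.604, -1.15 and -0.58 in BT549, HCC1806, MDAMB231 and MDAMB468. MECR, a reductase of mitochondrial fatty acid synthesis, had -0.398, and passed in MDAMB231 too. HSD17B12, a reductase of fatty acid elongation, passed in MDAMB231 alone, at -0.76. Its values elsewhere ran from -0.21 in HCC1806 to 0.047 in BT549, and the blocked joint test of the difference gave an adjusted p of 0.004899 in edgeR. In fits on the 6 libraries of a line the MLX call was lost in HCC1806 (adjusted p 0.712, edgeR), and the MDAMB231 calls were lost for HSD17B12 (0.112), MECR (0.148), RDH11 (0.0525), NFYC (0.200) and PANK3 (0.104). The MLX call in MDAMB468 was lost without a filter on low counts (adjusted p 0.0995 in the edgeR test). It was also lost without any 1 of that line's 6 libraries or without BT549 shADAR1 replicate 2 (adjusted p up to 0.203 in the edgeR test), and that in HCC1806 without shADAR1 replicate 1 or 3 or shNT replicate 1 or 2 (up to 0.126). Those in MDAMB231 were lost for HSD17B12 without shADAR1 replicate 1 or 3 or shNT replicate 1 or 2 (up to 0.211), and for MECR without shADAR1 replicate 1 or 2 or shNT replicate 2 or 3 (up to 0.142). They were lost for RDH11 without shADAR1 replicate 1 or 3 or shNT replicate 2 (up to 0.123), and for NFYC without replicate 1 of either arm (up to 0.137). With the block 6 of the 23 passed in the average, 2 higher and 4 lower.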

How the data were processed

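Whole-number read counts per gene, CPM and RPKM were deposited by the authors for each library, per the file headers. The CPM are counts scaled to a common library total and the RPKM are CPM per kilobase of gene length, per the file headers. The submitters' processing notes name bcl2fastq, STAR, Subread, featureCounts and edgeR. Roles, settings, genome build, annotation and strand use are not given in the sources used here. Of the 32 genes 29 have the same start and end as in GENCODE 29 on GRCh38. Members and gene lists were chosen with earlier results of these data known. The 32 genes were matched by Ensembl ID to symbols in a name table, which covered 33972 of 37416 genes.

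The counts were tested with edgeR 4.0.16 in R 4.3.3 (quasi-likelihood F test, 2-sided, 1 coefficient per group, TMM scaling, filterByExpr, 21352 genes) and adjusted by Benjamini-Hochberg over all genes, with a threshold of 0.05. Printed CPM are TMM-scaled, apart from the marker sums, which use the library totals. DESeq2 1.42.0, RLE and upper-quartile scaling, other filters, fits on 1 line and leaving out each library were alternatives. The scripts were tested on simulated data. Per-library values were named for genes past the threshold and for the 3 sterol and 3 fatty acid genes with the widest range between shNT groups. Values of further genes were added where the blocked fit changed a call. The values of 1 gene past the threshold are not reported here.

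Replicate numbers are shared between the arms. The deviations of same-numbered libraries from the group means were correlated on log2(CPM + 0.5) over 21352 genes, from 0.180 to 0.716, all over 0.1 in the 12 pairs, so the numbers were read as pairs from the data, not the labels. The blocked fit had a term for each number within each line.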

Additional observations from a re-analysis of the deposited data

Results flagged for a closer look

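For 3 genes the knockdown effect differed between the 4 lines in the joint edgeR test with the replicate number as a block, and for none of them without it. INSIG1 had an F of 11.4 (adjusted p 0.00837), with log2 fold changes from -0.25 in HCC1806 to 0.44 in MDAMB231. STARD4 had an F of 8.197 (adjusted p 0.0264 in that edgeR fit), from -0.22 in HCC1806 to 0.25 in MDAMB231. FASN had an F of 12.6 (adjusted p 0.00572 in that edgeR fit), with -0.29 in HCC1806 and 0.0998 in BT549. All 3 genes were lower in 3 of 3 pairs in HCC1806. Of all genes 4.69% passed the same test, so 3 of 32 is given beside that share with no further reading.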

How the results depend on the processing

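The count of the 32 genes called depended mainly on the replicate block. With the replicate number as a block it was 3 in BT549, 5 in HCC1806, 9 in MDAMB231, 1 in MDAMB468, 7 in the average and 3 for the difference between lines, against 0, 0, 0, 0, 1 and 0 without it. The pairing changed 24 of 159 gene results that were not called without it and lost none of the 22 that were. DESeq2 and a filter of at least 10 counts in every library each gave 1 in MDAMB231 (ACLY) and 2 in the average (ACLY and SCAP). Of all genes DESeq2 called 3.8% in MDAMB231 and 4.94% in the average, and the fit with that filter 4.99% and 7.11%. RLE and upper-quartile scaling, no filter and fits on the 6 libraries of a line gave the counts of the unblocked edgeR fit for the 32 genes. Over all gene results named, fits on 1 line lost 7 of 14 calls, ADAR in HCC1806 among them (adjusted p 0.106), and no filter lost 1 of 22. Leaving out each library in turn gave 0 to 1 in MDAMB231, with 1 without BT549 shNT replicate 3 or MDAMB231 shADAR1 replicate 2. It gave 1 to 2 in the average, with 2 without either of those libraries (SCAP and TM7SF2 joining in that order) or HCC1806 shADAR1 replicate 2 (SREBF1). The other lines stayed at 0 in all 24 such fits. The 30 genes that differed between shNT lines were 30 under RLE and upper-quartile scaling, DESeq2, both filters and the fit on the 12 shNT libraries, and 30 to 31 on leaving out a library. The blocked fit was not used for these levels. ACLY in the average passed in all 24, at log2 fold changes of -0.25 to -0.20. No called result changed its sign under any alternative. Leaving out a library moved 18 of 360 branch medians beyond the spread between pairs. The 360 include medians of lines that kept all their libraries, which could move little, so the 18 moves are not read as a share. The cause of these moves was not tested. With 3 libraries per arm the median standard error of the 32 log2 fold changes was 0.16 to 0.17 by line in the unblocked fit.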

Other observations

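The liver X receptors sense oxidised sterols and raise the export of cholesterol. Of 6 genes in a list of these receptors and their targets (ABCA1, ABCG1, LPCAT3, MYLIP, NR1H2 and NR1H3) none passed in the average by edgeR's quasi-likelihood F test (Benjamini-Hochberg), where 2.96% of all genes did. Without adjustment 1 of the 6 had a p under 0.05, against 12.8% of all genes. That gene was ABCA1, the cholesterol exporter. It stood at 117, 112 and 109 CPM in BT549 shNT and 145, 156 and 155 in shADAR1, and at 11.3, 8.11 and 8.77 against 11.5, 13.995 and 14.04 in HCC1806. MDAMB231 had 32.4, 17.96 and 49.99 against 48.4, 26.8 and 81.5, and MDAMB468 2.39, 2.09 and 2.5997 against 2.8, 2.99 and 3.59. The shADAR1 libraries lay above all shNT libraries in BT549, HCC1806 and MDAMB468, and the arms overlapped in MDAMB231. Its average was 0.5001 on the log2 scale (adjusted p 0.0831 without the block and 6.67e-07 with the replicate number as a block, edgeR, Benjamini-Hochberg). By line the blocked fit called it in BT549 (0.44), HCC1806 (0.53) and MDAMB231 (0.63), and not in MDAMB468 (0.43).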
